A study of Arabidopsis thaliana with 12 samples.

Results

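Roots that overexpressed the transcription factor gene ERF114 were compared with wild type roots, using 6 of the 12 root messenger RNA libraries of a series that set out to find genes downstream of ERF115 and ERF114. The members were the 3 ERF114OX libraries and the 3 wild type libraries, chosen by their titles, and all genes with enough counts, which were 23375 of the 37884 genes in the table. Wild type (WT) was Arabidopsis thaliana of the accession Col-0. ERF114OX carried 35S:ERF114, in which a viral promoter that is active in nearly all plant cells drives the gene, so expression was not limited to the cells that normally use the gene. Their genotype label adds the name ERF115OX to that construct, so grouping here was by title. The other groups were 35S:ERF115 (ERF115OX) and 35S:ERF115-SRDX (ERF115-SRDX, the factor joined to a repression motif). All were harvested as roots of seedlings 4 days old grown on plates, without a stated treatment. Neither the number of transgenic lines nor separate growth of the replicate plants is stated. The p-values therefore rest on library-to-library spread alone, and that spread may be technical.

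ERF114 and ERF115 are closely related members of group X of the AP2/ERF family, a plant family of transcription factors that bind DNA through the AP2 domain. ERF115 is known for its part in division of the quiescent centre, the slowly dividing organizer of the root stem cell niche, and in the replacement of damaged root cells, where it acts with the GRAS protein PAT1. ERF115 is also known to act on PSK5, the gene of a precursor of phytosulfokine, a sulfated peptide that promotes plant growth. ERF114 is known as an enhancer of bud outgrowth and of lateral root formation.

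Levels are normalized counts, which are reads of a gene divided by the size factor of its library, and they are given in the order of library 1, 2 and 3. Changes are ERF114OX minus WT on the scale of log2(normalized count + 1) with the standard error (SE), and adjusted p-values are from limma with Benjamini-Hochberg adjustment over the 23375 genes. A gene is said to have risen or fallen, or to be called, where its adjusted p was under 0.05. The 6 libraries held 47242114 to 48139119 reads on genes. Whether counting used strand is not given here, and 52 tested genes had exactly the reads of another tested gene in all libraries, so genes that overlap may share reads.

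ERF114 (AT5G61890) was at 35.0, 10.7 and 12.9 normalized counts in WT and 44417, 47807 and 47330.5 in ERF114OX. Its log2 change was 11.33 ± 1.02, with an adjusted p of 1.7e-05 in limma, and the groups lay far apart. Counts per gene do not separate transgene transcripts from those of the endogenous copy. ERF115 (AT5G07310) was at 4.86, 23.4 and 561 normalized counts in WT and 2.90, 10.6 and 5.19 in ERF114OX, and the groups overlapped. The log2 change of ERF115 was -2.72 ± 1.14 and was not called by limma (adjusted p = 0.081), and 1 WT library held nearly all of its reads. Of the 7 measured members of group X, ERF114 alone was called by limma. The others were ERF111 at -0.50 ± 0.31, ERF108 at -0.27 ± 0.16, RRTF1 at -0.26 ± 0.14, ERF113 at -0.13 ± 0.08 and AT2G33710 at 0.12 ± 0.09 (log2 changes). ERF115 was also called in edgeR and without WT 1, where its change was -4.16.

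In limma, 4093 genes were higher in ERF114OX (17.5% of those tested) and 4581 were lower (19.6%), which is 37.1% in either direction. The changes were mostly small, with a median log2 change of 0.35 among the higher genes and -0.55 among the lower ones. A change of at least 1 on the log2 scale was seen for 281 of the higher and 1130 of the lower genes, and one of at least 2 for 48 and 267. Over all genes tested the median was -0.01, and these shares and this median are the background against which lists are read. The split between higher and lower depended on the scaling. It was 3334 higher and 5278 lower with TMM scaling, which moved the median of all genes by -0.04, and 5136 higher and 3724 lower with quantile normalization, which moved it by 0.07. Without ERF114OX 1, the library with the fewest photosynthetic transcripts of its line, limma called 3959 genes higher and 4136 lower, and 7370 of the 8674 calls remained in the same direction (85.0%). The 3 libraries of each group did not overlap for 49.97% of all genes tested, so a lack of overlap alone is not a mark of the genes named here. Among the called genes, 4016 of the 4093 higher and 4415 of the 4581 lower showed no overlap, so it adds little to a call. The first principal component of the 6 libraries held 64.5% of the variance and separated the genotypes, and Pearson's r across genes was 0.984 to 0.993 within ERF114OX and 0.987 to 0.988 within WT.

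Root markers were present in all 6 libraries, and transcripts of green and aerial tissue were present too and lower in ERF114OX. The 16 genes of the root identity list took 0.0942, 0.101 and 0.0950% of normalized counts in WT and 0.121, 0.110 and 0.109% in ERF114OX, and limma called 4 higher and 2 lower. The 24 nuclear photosynthesis genes, which encode light-harvesting proteins, photosystem subunits and Rubisco subunits, took 1.95, 1.35 and 2.75% in WT and 0.339, 1.1 and 1.06% in ERF114OX. The groups did not overlap, and ERF114OX 1 held the smallest share of the 6 libraries. The exact permutation test of the share gave a two-sided p of 0.1, the smallest that 3 against 3 libraries allow. Limma called 0 of the 24 genes (median log2 change -1.36, and -0.77 without ERF114OX 1), although all 24 changes were negative and 22 showed no overlap. In this list 1 gene had an unadjusted p under 0.05, 0 passed in edgeR or DESeq2, and 7 were called when WT and ERF114OX were fitted alone. The main fit shares 1 spread per gene over all 12 libraries, and the photosynthesis shares of ERF115-SRDX were 0.0266, 0.359 and 0.0289%. The part of that spread in the 0 calls was not tested.

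**Figure D1:**
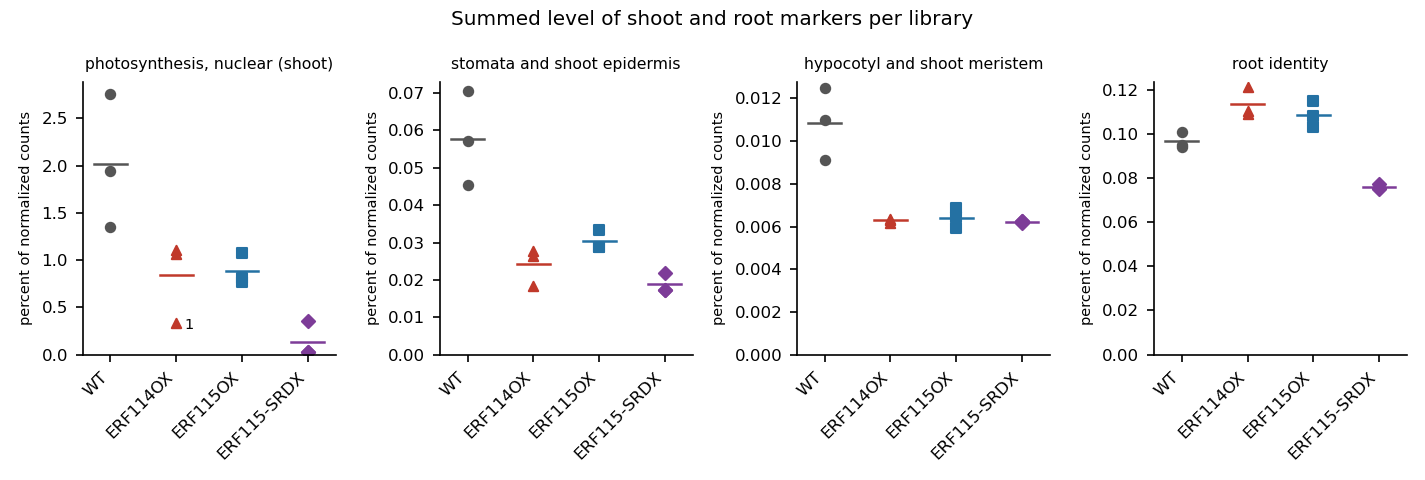
Summed level of 3 shoot lists and 1 root list in each library, as percent of all normalized counts of that library (points, libraries; bars, group means; "1" marks ERF114OX 1). The photosynthesis share of ERF114OX 1 (0.339%) lies below the other libraries of its line, and all 3 WT libraries lie above all 3 ERF114OX libraries in each shoot list.

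The other aerial lists moved the same way. Of 14 measured genes of stomata and shoot epidermis, 10 fell and 0 rose in limma (0 were higher at an unadjusted p under 0.05, in edgeR or in DESeq2), with a median log2 change of -1.79. CER3, a wax synthesis gene of the shoot cuticle, was at 3188, 2169 and 2652 normalized counts in WT and 1048, 1174 and 1313 in ERF114OX and fell by 1.17 ± 0.12 on the log2 scale (adjusted p = 5.1e-05). ATML1, a homeodomain factor of the shoot epidermis, was at 2103, 1226 and 1871 normalized counts in WT and 143, 535 and 608 in ERF114OX and fell by 2.23 ± 0.51 on the log2 scale (adjusted p = 0.0049). Neither gene showed an overlap of the groups, and ERF114OX 1 was the lowest library for both. The call of 10 became 5 without ERF114OX 1 and 6 without WT 3. Of 11 measured genes of the hypocotyl and shoot meristem list, 5 fell (median -1.27), including KNAT1, a homeobox gene of the shoot meristem and stem. KNAT1 was at 1253, 905 and 1006 normalized counts in WT and 391, 449 and 465 in ERF114OX (-1.27 ± 0.12, adjusted p = 2.0e-05), with ERF114OX 1 close to the other libraries of its line. Libraries are from bulk tissue, in which fewer cells of a type and less RNA per cell cannot be told apart. The part of this lower aerial signal in the falls of other genes was not tested.

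Among the strongest rises were genes of the cell wall, of transport and of defence. XTH20, a xyloglucan endotransglucosylase/hydrolase that cuts and rejoins wall xyloglucan, was at 739, 588 and 449 normalized counts in WT and 5054, 4942 and 5039.7 in ERF114OX. SBT3.3, a subtilisin-like protease known from immune priming, was at 30.1, 41.0 and 34.9 normalized counts in WT and 428, 452 and 449 in ERF114OX. AAP3, an amino acid permease of the root vasculature, was at 789, 709 and 747 normalized counts in WT and 5145, 4763 and 4735 in ERF114OX. The log2 changes were 3.11 ± 0.13 for XTH20, 3.62 ± 0.18 for SBT3.3 and 2.70 ± 0.08 for AAP3, with adjusted p of 7.2e-08, 2.6e-07 and 6.5e-09 in limma. The libraries of ERF114OX were nearly level with each other for all 3 genes and far from WT.

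The aquaporin PIP2;5, which moves water across the plasma membrane, was at 149.7, 129 and 128 normalized counts in WT and 702, 918 and 909 in ERF114OX. CYP82C4, a cytochrome P450 of coumarin synthesis that is known from iron deficiency, was at 499, 350.2 and 301 normalized counts in WT and 2225, 1829 and 1776 in ERF114OX. MYB14, an R2R3-MYB transcription factor, was at 136, 135 and 111 normalized counts in WT and 775, 587 and 644 in ERF114OX. These genes changed by 2.62 ± 0.25, 2.36 ± 0.21 and 2.38 ± 0.12 on the log2 scale (adjusted p = 2.0e-05, 1.7e-05 and 2.6e-07), and no library of one group reached the other. The remaining genes among the 12 largest rises included AT1G30760, annotated as an FAD-binding berberine family protein (2.49 ± 0.09). AT1G64625 is annotated only as a protein like WNK serine/threonine kinases (2.87 ± 0.23), and AT4G28420 as a tyrosine transaminase family protein (2.76 ± 0.41). The others were the defensin-like gene AT5G33355 (3.12 ± 0.46), the uncharacterized protein AT3G29633 (4.47 ± 0.36) and the uncharacterized RNA AT1G08943 (4.52 ± 0.44). AT1G08943 rose from 1.94, 5.85 and 3.98 in WT to 128, 84.7 and 108, and AT3G29633 from 7.78, 3.90 and 3.98 to 138, 114 and 143, so both were close to silent in WT. By p-value the leading rises were AAP3, AT1G30760, PSK5, XTH20, ADT4 and SBT3.3. ADT4, an arogenate dehydratase of the last step of phenylalanine synthesis, was at 1478, 1478 and 1462 normalized counts in WT and 3379.8, 3778 and 3801 in ERF114OX (1.31 ± 0.06, adjusted p = 1.3e-07).

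**Figure D2:**
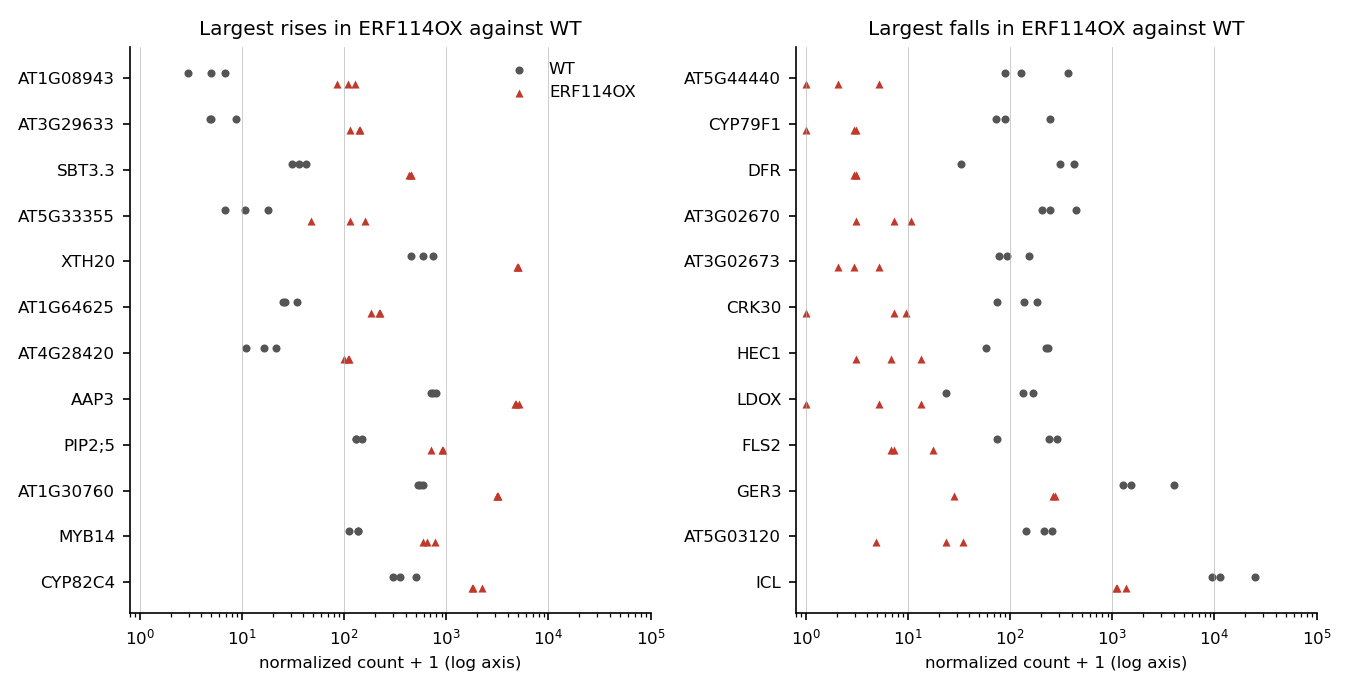
Normalized count + 1 in each WT (circles) and ERF114OX (triangles) library, on a log axis, for the 12 largest rises (left) and the 12 largest falls (right) among called genes whose groups were apart and whose higher group averaged at least 100 normalized counts. ERF114 itself is left out. Rises such as AAP3 start from close WT values, while WT libraries spread widely for several falls, such as DFR at 32.1, 420 and 307 normalized counts.

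Many of the strongest falls started from WT libraries that differed among themselves. CYP79F1, which makes the first committed step from chain-elongated methionine to aliphatic glucosinolates, was at 88.5, 71.2 and 242 normalized counts in WT and 1.94, 2.118 and 0 in ERF114OX. FLS2, the receptor of bacterial flagellin, was at 284, 74.1 and 241 normalized counts in WT and 5.81, 6.35 and 16.6 in ERF114OX. ICL, the isocitrate lyase of the glyoxylate cycle by which seedlings use seed oil, was at 11353, 9535 and 24886 normalized counts in WT and 1376, 1084 and 1120.4 in ERF114OX. The changes were -5.80 ± 0.59 for CYP79F1, -4.17 ± 0.52 for FLS2 and -3.55 ± 0.28 for ICL on the log2 scale (adjusted p of 3.6e-05, 0.00013 and 5.9e-06 in limma). WT 3 was the highest library for CYP79F1 and ICL, and WT 1 for FLS2. Fitted changes of genes that end near 0 depend on the pseudocount.

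DFR, which reduces dihydroflavonols towards anthocyanins, was at 32.1, 420.4 and 307 normalized counts in WT and 1.94, 2.118 and 2.07 in ERF114OX, and LDOX, which acts after it, was at 22.4, 133 and 166 normalized counts in WT and 0, 4.24 and 12.4 in ERF114OX. DFR fell by 5.74 ± 1.09 on the log2 scale (adjusted p = 0.0018) and LDOX by 4.29 ± 1.33 on the log2 scale (adjusted p = 0.024). WT 1 was far below the other WT libraries for both, and the call of LDOX was lost in DESeq2 and without ERF114OX 1 (adjusted p = 0.088), ERF114OX 2, WT 2 or WT 3. GER3, a germin-like protein, was at 4029, 1509 and 1283 normalized counts in WT and 27.1, 260.5 and 272 in ERF114OX, and its change of -3.98 ± 1.03 became -2.89 without ERF114OX 1. HEC1, a bHLH factor known from the gynoecium and shoot stem cells, was at 222, 56.6 and 234 normalized counts in WT and 5.81, 2.118 and 12.4 in ERF114OX (-4.46 ± 0.69). The other genes among the 12 largest falls were the berberine family gene AT5G44440 (-6.19 ± 0.87), the neighbours AT3G02670 and AT3G02673 (-5.50 ± 0.56 and -5.04 ± 0.42), the receptor-like kinase CRK30 (-4.90 ± 0.97) and the uncharacterized AT5G03120 (-3.64 ± 0.70). By p-value the leading falls were CYP72A8 (-1.72 ± 0.09), AT5G61290 (-3.02 ± 0.15), the auxin-conjugating enzyme gene GH3.3, UMAMIT12 (-1.82 ± 0.10), IGMT2 and AT1G27020 (-1.09 ± 0.07). CYP72A8, a cytochrome P450, was at 824, 910.2 and 996 normalized counts in WT and 295, 252 and 281 in ERF114OX. UMAMIT12, a member of a family of amino acid transporters, was at 2291, 2473 and 2216 normalized counts in WT and 758, 644 and 585 in ERF114OX. In both the groups lay several times apart with little spread within them.

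Regulators of wounding and regeneration rose without a fall in the limma calls. Of 14 measured members 7 rose and 0 fell (1 was lower at an unadjusted p under 0.05, 1 in edgeR and 0 in DESeq2), with a median log2 change of 0.37. WIND1, an AP2/ERF factor that promotes dedifferentiation at wounds, was at 7132, 7746 and 7090.3 normalized counts in WT and 12049, 11874 and 11639 in ERF114OX (0.70 ± 0.05, adjusted p = 1.8e-06). RAP2.4, of the same branch of the family, was at 1592, 1519.8 and 1476 normalized counts in WT and 2206, 2257 and 2197 in ERF114OX (0.54 ± 0.05, adjusted p = 1.3e-05). The groups did not overlap for either gene, and the differences were of less than 2-fold. The heat shock factor gene HSFB1 (0.71 ± 0.07) and the homeobox gene WOX13 (0.39 ± 0.09), which is known from callus formation and organ reconnection, also rose.

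Signalling peptides were led by phytosulfokine precursors. Of 16 measured small peptide genes and receptors 6 rose and 2 fell (median 0.15). PSK5 was at 302, 294 and 274 normalized counts in WT and 1065, 1052 and 1173 in ERF114OX (1.92 ± 0.08, adjusted p = 5.0e-08), and PSK1 at 519, 604 and 533 normalized counts in WT and 1060.1, 879 and 1033 in ERF114OX (0.84 ± 0.09, adjusted p = 7.0e-05). PSK2, of the same family, went the other way and was at 128, 83.9 and 134 normalized counts in WT and 39.7, 46.6 and 36.3 in ERF114OX (-1.45 ± 0.20, adjusted p = 0.00023). So PSK5 and PSK1 rose and PSK2 fell, each without an overlap of the groups. RALFL22 of the rapid alkalinization factors (0.76 ± 0.08) and PSY1, a tyrosine-sulfated growth peptide (0.75 ± 0.12), rose, and PROPEP2, a precursor of wound peptides, fell (-1.52 ± 0.32). Of 21 measured CLE peptide genes 9 rose and 0 fell in limma (2 were lower at an unadjusted p under 0.05, 2 in edgeR and 1 in DESeq2), with a median of 0.42. CLE2 was at 104, 146 and 121 normalized counts in WT and 437, 487 and 537 in ERF114OX (1.98 ± 0.17, adjusted p = 1.3e-05), and CLE1 at 19.4, 37.1 and 38.8 normalized counts in WT and 124, 121 and 104 in ERF114OX (1.89 ± 0.28, adjusted p = 0.00040). Both CLE genes were at several times the WT level in all 3 ERF114OX libraries.

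Lateral root regulators rose in part. Of 17 measured members 6 rose and 2 fell (median 0.22), and 5 in all were called without WT 1 or without ERF114OX 3. LBD18, a lateral organ boundaries factor of lateral root initiation and emergence, was at 116, 135 and 93.6 normalized counts in WT and 210.1, 191 and 166 in ERF114OX (0.72 ± 0.15, adjusted p = 0.0033). LBD17 was at 23.3, 31.2 and 27.9 normalized counts in WT and 81.3, 62.5 and 76.8 in ERF114OX (1.39 ± 0.33, adjusted p = 0.0068), and was the larger change of the pair. The auxin response repressors IAA28 (0.43 ± 0.11) and IAA14 (0.33 ± 0.08), which act in lateral root founder cells and initiation, rose as well, while the receptor kinase gene ACR4 (-0.57 ± 0.16) and the auxin response factor gene ARF19 (-0.26 ± 0.09) fell. The call of ACR4 was lost without WT 1 (-0.44), and that of ARF19 without ERF114OX 2, ERF114OX 3, WT 1 or WT 3 (-0.25 to -0.18).

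Genes of the vascular cambium rose and none fell. Of 18 measured procambium and cambium factors 11 rose and 0 fell in limma, where 0 were lower at an unadjusted p under 0.05 or in edgeR or DESeq2, and the median was 0.31. ATHB8, a homeodomain-leucine zipper factor that marks preprocambial cells, was at 2078, 2181 and 2084 normalized counts in WT and 3962, 3931 and 3747 in ERF114OX (0.88 ± 0.05, adjusted p = 9.4e-07). PXY, the receptor kinase that keeps cambium cells dividing in response to a CLE peptide, was at 1617, 1736 and 1607 normalized counts in WT and 2484, 2638 and 2569 in ERF114OX (0.63 ± 0.05, adjusted p = 9.6e-06). Its libraries in ERF114OX were all above all of WT, as were those of ATHB8. REV (0.33 ± 0.04) and DOF6 (0.58 ± 0.08) also rose. Phloem genes were mixed, with 3 higher and 3 lower of 16, 3 in all without ERF114OX 3, and 1 fall without ERF114OX 1. OPS, a regulator of protophloem differentiation, was at 954, 924 and 845 normalized counts in WT and 1426, 1769 and 1494 in ERF114OX (0.78 ± 0.08, adjusted p = 4.4e-05), and the phloem factor gene APL changed by 0.47 ± 0.10. The sugar exporter gene SWEET11 was at 1612, 1224 and 1656 normalized counts in WT and 95.8, 389 and 376 in ERF114OX (-2.62 ± 0.89, adjusted p = 0.036). SWEET11 was lowest in ERF114OX 1, the library with the fewest photosynthetic transcripts, and its call was lost when any library other than ERF114OX 2 was left out (-1.95 without ERF114OX 1).

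Xylem and lignin genes followed on a smaller scale. Of 23 measured xylem and secondary wall genes 8 rose and 0 fell in limma, where 0 were lower at an unadjusted p under 0.05 or in edgeR or DESeq2 (median 0.12). XCP1, a protease of xylem vessel autolysis, was at 4178, 4651 and 4599 normalized counts in WT and 7421, 7339 and 7361 in ERF114OX (0.72 ± 0.07, adjusted p = 1.8e-05). VND7, a NAC switch of vessel differentiation, was at 106, 95.6 and 109 normalized counts in WT and 184, 211 and 168 in ERF114OX (0.85 ± 0.14, adjusted p = 0.00088). Both groups were tight for XCP1, and neither gene overlapped. Of 18 measured phenylpropanoid and lignin enzymes 12 rose and 1 fell (median 0.26), and 8 in all were called without WT 1 or without ERF114OX 2. HCT was at 14189, 14849 and 15071 normalized counts in WT and 19898, 22576 and 22806 in ERF114OX (0.56 ± 0.07, adjusted p = 0.00014), CAD5 changed by 0.63 ± 0.08, CCR1 by 0.46 ± 0.06 and CCR2 by 0.41 ± 0.08. HCT and CCR act in the middle of the monolignol pathway and CAD5 at its end. FAH1, the ferulate 5-hydroxylase of sinapate and syringyl lignin synthesis, was the member that fell, at 1201, 944 and 982 normalized counts in WT and 401, 724 and 700.2 in ERF114OX (-0.82 ± 0.18, and -0.54 without ERF114OX 1). Casparian strip and suberin genes showed 1 rise and 5 falls of 21, among them the suberin transporter gene ABCG2 (-0.66 ± 0.09) and the fatty acid hydroxylase gene HORST (-0.45 ± 0.11), with KCS2 higher (0.39 ± 0.07).

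Root hair genes made up the list with the highest share of rises. Root hairs are tubular outgrowths of single epidermal cells, and their growth needs wall proteins, proton pumps and oxidase activity at the tip. Of 22 measured root hair growth genes 19 rose and 0 fell in limma (0 were lower at an unadjusted p under 0.05, in edgeR or in DESeq2), with a median of 0.62, against 17.5% of all genes higher. EXPA18, an expansin that loosens the wall of root hairs, was at 1059.5, 1174 and 1221 normalized counts in WT and 2057, 2469 and 2499 in ERF114OX (1.02 ± 0.09, adjusted p = 1.0e-05). RHS10, a receptor-like kinase of root hairs, was at 1466, 1529.6 and 1495 normalized counts in WT and 2344, 2419 and 2557 in ERF114OX (0.70 ± 0.06, adjusted p = 6.2e-06). RHS13 (0.95 ± 0.08) and RHS18 (1.098 ± 0.10) rose as well, and the rises of the list ran to 1.30. All 19 were without an overlap of the groups, as were 4016 of the 4093 genes called higher, and the count was 18 without ERF114OX 1.

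Upstream of these, 5 of 17 root hair factors rose and 3 fell (median 0.07). RHD6, the bHLH factor that starts root hair formation, was at 550.2, 547 and 539 normalized counts in WT and 1084, 937 and 998 in ERF114OX (0.88 ± 0.09, adjusted p = 4.0e-05). ZFP5, a zinc finger factor of root hair initiation, was at 402, 458 and 459 normalized counts in WT and 793, 720.1 and 817 in ERF114OX (0.82 ± 0.09, adjusted p = 6.3e-05). LRL2 (0.67 ± 0.09) and LRL1 (0.41 ± 0.08), bHLH factors of hair growth, rose too. The genes that fell included regulators of the hairless fate, WER (-0.44 ± 0.10) and GL2 (-0.29 ± 0.09), and ETC1, a small MYB inhibitor of that fate (-1.17 ± 0.29). WER was at 440.3, 439 and 405 normalized counts in WT and 352, 299.7 and 297 in ERF114OX, so the groups were apart by less than 2-fold. The call of GL2 was lost with quantile normalization and when any library other than ERF114OX 2 or WT 2 was left out (-0.22 without ERF114OX 1).

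**Figure D3:**
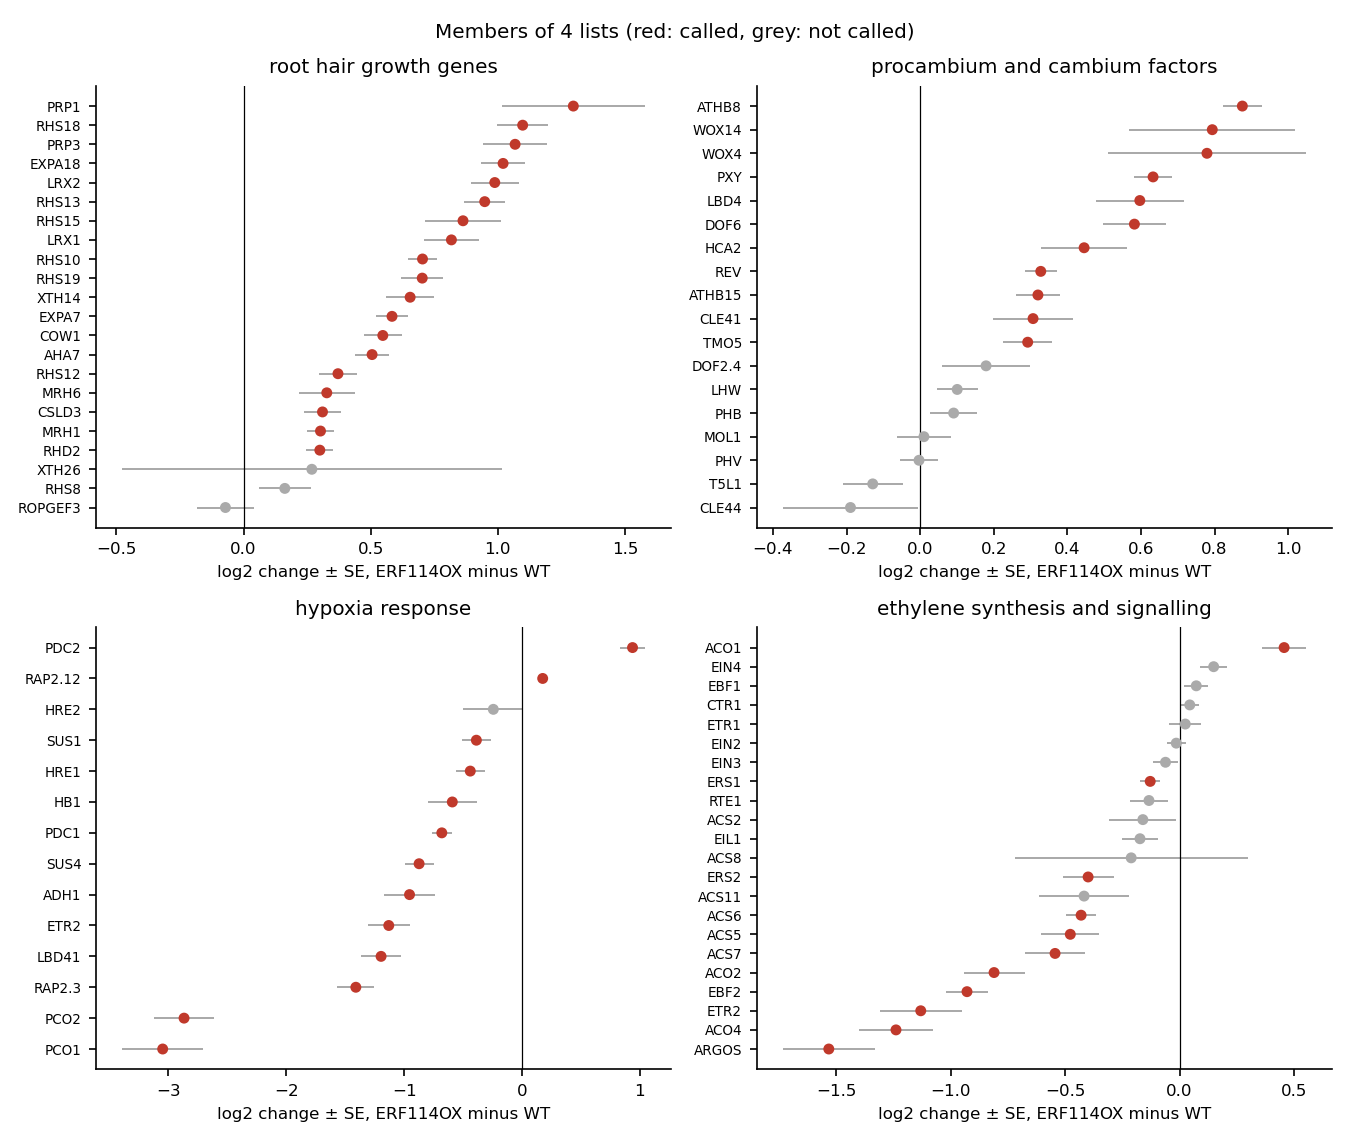
Log2 change (ERF114OX minus WT, x axis) with its standard error for each measured member of 4 lists, in red where called by limma and in grey where not. Of the root hair growth genes 19 of 22 are called on the right of 0 and of the hypoxia genes 11 of 14 on the left.

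Wall-building families were higher in part. Of 34 measured arabinogalactan proteins, which are heavily glycosylated proteins of the cell surface, 18 rose and 2 fell (median 0.36), and without ERF114OX 1 the falls were lost. AGP14, known from root hairs, was at 4727, 5147 and 5936 normalized counts in WT and 8804, 10375 and 10141 in ERF114OX (0.89 ± 0.09, adjusted p = 2.4e-05), and AGP3 at 1865, 2503 and 2046 normalized counts in WT and 3808, 4614 and 4771 in ERF114OX (1.04 ± 0.11, adjusted p = 3.5e-05). Neither showed an overlap of the groups. Class III peroxidases, which act on wall phenolics with hydrogen peroxide, had 25 rises and 10 falls of 64 (median 0.23). AT4G36430 had the smallest p among them and was at 911, 955 and 868 normalized counts in WT and 5044, 4397 and 4374 in ERF114OX (2.33 ± 0.12, adjusted p = 2.6e-07), and AT5G64120 went down at 26233, 31550.0 and 34449 normalized counts in WT and 9837, 14772 and 15150.2 in ERF114OX (-1.23 ± 0.16, adjusted p = 0.00018). Of 29 aquaporins 16 rose and 2 fell (median 0.37), among them TIP2;2 at 20682, 23396 and 23574 normalized counts in WT and 38468, 47698 and 44539.9 in ERF114OX (0.95 ± 0.13). The 2 that fell were PIP2E (-1.67 ± 0.32) and SIP1;2 (-0.59 ± 0.11).

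Other wall families moved in both directions. Of 26 xyloglucan endotransglucosylases 6 rose and 8 fell. XTH4 was at 15838, 12189 and 14609.8 normalized counts in WT and 4741, 6633 and 6218 in ERF114OX (-1.28 ± 0.13, adjusted p = 3.0e-05) and XTH24 at 6092, 6143 and 7136 normalized counts in WT and 1803, 2871 and 2853 in ERF114OX (-1.39 ± 0.15, adjusted p = 5.4e-05), both below WT in every library, in contrast to XTH20. Expansins had 9 rises and 4 falls of 24. EXPA4 was at 3729, 4038 and 3036 normalized counts in WT and 5761, 6389.5 and 6057 in ERF114OX (0.76 ± 0.09) and EXPA5 at 471, 236 and 297 normalized counts in WT and 15.5, 49.8 and 39.4 in ERF114OX (-3.31 ± 0.46), which was lowest in ERF114OX 1. Pectin methylesterases and their inhibitors had 15 rises and 11 falls of 62, with AT1G14890 higher (1.43 ± 0.14) and PME44 lower (-1.53 ± 0.23).

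Auxin genes moved in both directions within each role. Auxin is made through the TAA and YUCCA enzymes, moved by PIN and AUX1/LAX carriers, sensed through Aux/IAA repressors and stored as conjugates by GH3 enzymes. Of 9 synthesis genes 1 rose and 2 fell, with YUC7 at 44.7, 48.8 and 89.6 normalized counts in WT and 24.2, 14.8 and 13.5 in ERF114OX (-1.72 ± 0.37) and TAR2 at 308, 320.0 and 319.7 normalized counts in WT and 208, 231 and 216 in ERF114OX (-0.53 ± 0.11), and YUC8 higher (0.27 ± 0.09). The call of YUC8 was lost under 9 settings, among them without ERF114OX 2, ERF114OX 3, WT 2 or WT 3. Quantile normalization called 5 of the 9. Of 17 transport genes 5 rose and 4 fell. The influx carrier gene AUX1 was at 6787, 6765 and 6666 normalized counts in WT and 9671, 10637 and 10502 in ERF114OX (0.61 ± 0.05, adjusted p = 6.0e-06), and PID changed by 0.60 ± 0.11 and LAX2 by 0.46 ± 0.09. PIN5, whose protein sits in the endoplasmic reticulum, was at 222, 318 and 244 normalized counts in WT and 106, 101 and 105 in ERF114OX (-1.30 ± 0.13, adjusted p = 2.5e-05). PIN7 (-0.34 ± 0.08), PILS3 (-0.24 ± 0.06) and ABCB19 (-0.25 ± 0.06) fell by less.

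Among 29 Aux/IAA and GH3 genes 7 rose and 10 fell (median -0.13). GH3.2 was at 469.5, 549 and 457 normalized counts in WT and 1529.7, 1789.6 and 1627 in ERF114OX (1.74 ± 0.10, adjusted p = 5.6e-07), while GH3.3 was at 1558, 1645 and 1523 normalized counts in WT and 651, 721 and 640.1 in ERF114OX (-1.23 ± 0.06, adjusted p = 2.6e-07). So a pair of enzymes of the same class went in opposite directions, each with tight groups. IAA7 (-0.76 ± 0.08), IAA26 (-0.37 ± 0.07) and GH3.17 (-0.24 ± 0.05) fell, and IAA27 (0.50 ± 0.10), IAA17 (0.28 ± 0.06) and IAA9 (0.26 ± 0.04) rose. Of 58 SAUR genes, which answer quickly to auxin, 10 rose and 12 fell, close to the shares of all genes (17.5% higher and 19.6% lower). The calls of this family came to 13 without ERF114OX 1, when 3 genes were lower, and to 11 without WT 1. AT2G46690, a SAUR gene, was at 1268, 1270.1 and 1252 normalized counts in WT and 2808, 2638 and 2532 in ERF114OX (1.07 ± 0.06, adjusted p = 7.6e-07).

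Cytokinin genes changed in both directions, with 6 higher and 7 lower of 27, beside 17.5% of all genes higher and 19.6% lower. Type-A response regulators are induced by cytokinin and dampen its signal, and CKX enzymes degrade it. ARR5 was at 1275, 1234 and 1377 normalized counts in WT and 1829.8, 1786 and 1853 in ERF114OX (0.49 ± 0.07, adjusted p = 0.00025), and ARR4 (0.25 ± 0.05), ARR9 (0.22 ± 0.05) and the synthesis gene IPT3 (0.64 ± 0.10) also rose. CKX2 was at 54.4, 66.3 and 70.7 normalized counts in WT and 12.6, 2.118 and 8.30 in ERF114OX (-3.14 ± 0.46, adjusted p = 0.00038) and CKX7 at 253, 226 and 272 normalized counts in WT and 67.8, 107 and 115.2 in ERF114OX (-1.40 ± 0.19, adjusted p = 0.00024). CKX2 was nearly absent from the ERF114OX libraries. ARR8 (-0.56 ± 0.10) and the hydroxylase gene CYP735A1 (-0.84 ± 0.14) fell.

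Ethylene genes fell more often than they rose. Ethylene is made by ACS and ACO enzymes, and its receptors and EBF proteins hold the response in check. Of 22 measured genes 10 fell and 1 rose (median -0.19), against 19.6% of all genes lower. ARGOS, a membrane protein that lowers ethylene sensitivity, was at 219.7, 172 and 266 normalized counts in WT and 85.2, 76.2 and 62.2 in ERF114OX (-1.53 ± 0.20, adjusted p = 0.00018). EBF2, an F-box protein that removes EIN3, was at 8549, 7942 and 10531 normalized counts in WT and 4513, 4818 and 4772 in ERF114OX (-0.93 ± 0.09, adjusted p = 2.4e-05). ACO4 was at 4231, 3653 and 6023 normalized counts in WT and 1601, 2082 and 2126 in ERF114OX (-1.24 ± 0.16, adjusted p = 0.00019), with WT 3 the highest library, as it was for EBF2 and ARGOS. ACS6 fell (-0.43 ± 0.07), and ACO1 was the gene that rose (0.46 ± 0.09).

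Other hormone lists had calls in both directions, beside 17.5% of all genes higher and 19.6% lower. Brassinosteroid genes had 1 rise and 5 falls of 14, with the inactivating enzyme gene BAS1 at -0.58 ± 0.09 and the synthesis genes BR6OX2 at -0.41 ± 0.08 and BR6OX1 at -0.52 ± 0.12. Gibberellin genes had 5 rises and 4 falls of 18. The receptor genes GID1B (0.41 ± 0.07), GID1A (0.31 ± 0.05) and GID1C (0.27 ± 0.06) and the synthesis gene GA3OX1 (0.40 ± 0.09) rose, and GA20OX2 (-0.40 ± 0.10) and the inactivating gene GA2OX2 (-0.63 ± 0.16) fell. Jasmonate genes had 3 rises and 6 falls of 23, which became 4 calls in all without ERF114OX 3 and 5 without WT 3, and 3 falls without ERF114OX 1. JAR1, which makes the active isoleucine conjugate, was at 4987, 5087 and 4989 normalized counts in WT and 6604, 6744 and 6729 in ERF114OX (0.41 ± 0.05), and the lipoxygenase gene LOX6 at 2446, 2306 and 2269.8 normalized counts in WT and 1653, 1511 and 1505 in ERF114OX (-0.59 ± 0.07). Abscisic acid and dehydration genes had 5 rises and 2 falls of 19 (4 calls without WT 3), with P5CS1 of proline synthesis at 0.68 ± 0.06 and RD22 at -1.07 ± 0.20.

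Most hypoxia response genes fell. Plants sense low oxygen through plant cysteine oxidases, which mark group VII ERF factors for removal, and respond with fermentation. Of 14 measured genes 11 fell and 2 rose (median -0.78). PCO1, a cysteine oxidase gene that is itself induced by low oxygen, was at 297, 245 and 287 normalized counts in WT and 27.1, 40.2 and 31.1 in ERF114OX (-3.05 ± 0.34, adjusted p = 7.1e-05). PCO2 was at 182, 176 and 253 normalized counts in WT and 19.4, 27.5 and 35.3 in ERF114OX (-2.87 ± 0.25, adjusted p = 1.3e-05). Each stood at a small fraction of WT in all 3 ERF114OX libraries. RAP2.3, a group VII factor, was at 2068, 1828 and 2595 normalized counts in WT and 622, 999.6 and 840.3 in ERF114OX (-1.41 ± 0.16, adjusted p = 6.8e-05), and the pyruvate decarboxylase gene PDC1 changed by -0.68 ± 0.09. PDC2, a second decarboxylase gene, went the other way at 1369, 1572 and 1666 normalized counts in WT and 2739, 3131 and 2949 in ERF114OX (0.94 ± 0.11, adjusted p = 7.3e-05), and the group VII factor gene RAP2.12 rose by a small amount (0.18 ± 0.04), a call that was lost with quantile normalization. Without ERF114OX 1, 9 genes fell and 2 rose.

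Immune genes fell in part, and PAD4 rose. Of 13 measured genes of salicylate and systemic immunity 6 fell and 1 rose (median -0.18). FMO1, which makes N-hydroxypipecolate, a mobile signal of systemic immunity, was at 64.2, 83.9 and 76.7 normalized counts in WT and 7.75, 6.35 and 6.22 in ERF114OX (-3.28 ± 0.26, adjusted p = 6.2e-06). ALD1, which acts before it in that pathway, was at 173, 199.98 and 180.3 normalized counts in WT and 60.03, 44.5 and 58.1 in ERF114OX (-1.76 ± 0.18, adjusted p = 3.7e-05). The salicylate synthesis gene PBS3 (-3.96 ± 0.54) and the regulator gene CBP60G (-1.03 ± 0.19) fell too, and PAD4, a lipase-like regulator, was at 658, 645 and 749 normalized counts in WT and 975, 929.7 and 796 in ERF114OX (0.39 ± 0.09, adjusted p = 0.0053). FMO1 and ALD1 showed no overlap and little spread. Of 27 cysteine-rich receptor-like kinases 11 fell and 1 rose (median -0.91). CRK10 was at 371, 309 and 398 normalized counts in WT and 104, 124 and 111 in ERF114OX (-1.66 ± 0.12, adjusted p = 2.7e-06) and CRK11 at 774, 921 and 1072 normalized counts in WT and 381, 379 and 386 in ERF114OX (-1.26 ± 0.11, adjusted p = 1.7e-05). CRK34 was the gene that rose (0.28 ± 0.08), a call lost without ERF114OX 3 or WT 1. Of 16 wall-associated kinases 6 fell and 2 rose, 5 calls in all without WT 3 or ERF114OX 3.

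WRKY factors, many of which act in immunity, had 9 rises and 19 falls of 58 (median -0.14). WRKY57 was at 968, 854 and 1019.9 normalized counts in WT and 2871, 2410.1 and 2340.4 in ERF114OX (1.42 ± 0.11, adjusted p = 6.1e-06), the largest rise among WRKY genes with reads in WT. WRKY75 (-0.64 ± 0.11), WRKY38 (-1.10 ± 0.22), WRKY72 (-0.41 ± 0.08) and WRKY48 (-0.69 ± 0.15) fell. Group IX ERF factors, which act in defence, had 1 rise and 5 falls of 12 (median -0.63). ERF2 was at 81.7, 68.3 and 99.6 normalized counts in WT and 23.2, 15.9 and 16.6 in ERF114OX (-2.11 ± 0.20, adjusted p = 2.2e-05), ERF-1 at 2356, 2356 and 2521 normalized counts in WT and 1589.7, 1637 and 1521 in ERF114OX (-0.61 ± 0.06, adjusted p = 4.3e-05). The jasmonate and ethylene integrator gene ORA59 was at 64.2, 52.7 and 42.8 normalized counts in WT and 27.1, 10.6 and 2.07 in ERF114OX (-2.42 ± 0.80, adjusted p = 0.033), with a wide spread in ERF114OX. Its call was lost when any library other than ERF114OX 1 was left out (-1.57 without ERF114OX 3), and with the replicate block.

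Indole defence genes fell in part. Of 18 measured genes of camalexin and indole glucosinolates 6 fell and 2 rose (median -0.10). ABCG36, an exporter known from defence against fungi, was at 35149.5, 36787 and 40357 normalized counts in WT and 23292, 26539 and 26100.0 in ERF114OX (-0.56 ± 0.08, adjusted p = 0.00040), and CYP71A12 at 256, 430.2 and 729 normalized counts in WT and 180.1, 183 and 217 in ERF114OX (-1.16 ± 0.29, adjusted p = 0.0087). ABCG36 was lower in each library, while CYP71A12 varied widely within WT. IGMT2, a methyltransferase of indole glucosinolates, was at 1803, 2077 and 2158 normalized counts in WT and 535, 629 and 613 in ERF114OX (-1.76 ± 0.10, adjusted p = 7.4e-07). Glutathione S-transferases had 10 rises and 17 falls of 51 (median -0.24), with GSTF7 at 3332, 3882 and 2650.3 normalized counts in WT and 6639, 6815 and 7405 in ERF114OX (1.096 ± 0.13) and GSTF6, a close relative, at 1523, 2067 and 1978 normalized counts in WT and 793, 863 and 979 in ERF114OX (-1.07 ± 0.14). Reads of such close copies can be split by the counting, so that pair is uncertain.

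Most aliphatic glucosinolate genes were lower in ERF114OX than in WT, and most were lower than in ERF115OX. These sulfur-rich defence compounds are made from methionine, whose chain is lengthened by BCAT4 and MAM enzymes before CYP79F and CYP83A1 build the core. Of 12 measured genes 8 fell and 2 rose (median -1.12). MYB28, the main activator of the pathway, was at 1091, 827 and 759.9 normalized counts in WT and 424, 382 and 408 in ERF114OX (-1.12 ± 0.12, adjusted p = 5.0e-05). MAM1 was at 2182, 1447 and 1727 normalized counts in WT and 437, 686 and 708 in ERF114OX (-1.56 ± 0.18, adjusted p = 8.9e-05) and MAM3 at 3506, 3034 and 2183 normalized counts in WT and 1360.2, 1156 and 1125 in ERF114OX (-1.24 ± 0.13, adjusted p = 5.3e-05). All 3 genes were below every WT library in every ERF114OX library. The rises were of the transporter genes GTR1 (0.47 ± 0.07) and GTR2 (0.71 ± 0.05), which load glucosinolates into the phloem. Against ERF115OX, limma called 10 of the 12 lower, where 6.9% of all genes were called in either direction. In ERF115OX, MYB28 was at 818, 687 and 687, MAM1 at 2052, 2067 and 2074 and MAM3 at 3791, 3699.7 and 3657, and the direct differences of ERF114OX from ERF115OX were -0.85 ± 0.12 (adjusted p = 0.0017), -1.79 ± 0.18 (adjusted p = 0.00017) and -1.62 ± 0.13 (adjusted p = 4.3e-05). CYP79F1 was at 50.4, 68.1 and 53.7 normalized counts in ERF115OX, below every WT library. MAM3 in ERF115OX was above every WT library, and MYB28 and MAM1 overlapped with WT. So ERF115OX was not level with WT at each of these genes, and ERF115OX against WT was not tested. The photosynthesis share of ERF115OX was 1.08, 0.770 and 0.810%, a range that overlapped with that of ERF114OX.

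**Figure D4:**
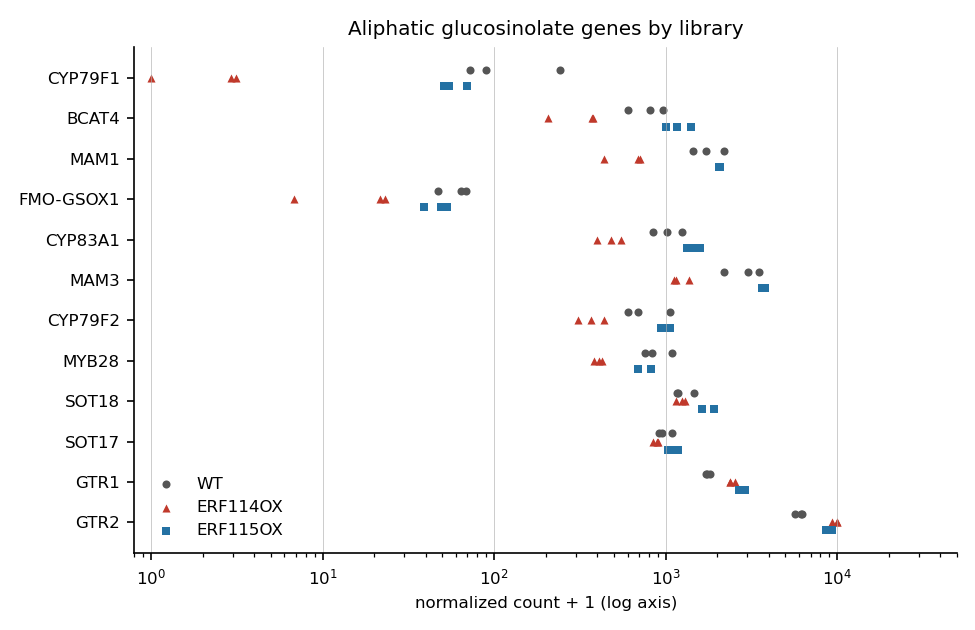
Normalized count + 1 on a log axis for the 12 measured aliphatic glucosinolate genes in each WT (circles), ERF114OX (triangles) and ERF115OX (squares) library. For CYP79F1, MAM1, MAM3 and MYB28 the ERF114OX libraries lie to the left of both other groups, and the transporter genes GTR1 and GTR2 lie above WT.

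Flavonoid genes were split along the pathway. Of 13 measured genes 6 rose and 5 fell. CHS, the first enzyme, was at 14817, 16389 and 16505 normalized counts in WT and 25201, 25985 and 25077 in ERF114OX (0.68 ± 0.09, adjusted p = 0.00024), F3H changed by 0.58 ± 0.07, and FLS1, which leads to flavonols, by 0.60 ± 0.08. The glucosyltransferase gene UGT78D2 also rose (0.60 ± 0.09). The genes that fell were DFR, LDOX, 5MAT (-3.72 ± 0.93) and UGT79B1 (-2.29 ± 0.75) of the anthocyanin branch, and UGT78D1, a flavonol rhamnosyltransferase (-1.004 ± 0.14). UGT78D1 was at 539, 429 and 601 normalized counts in WT and 225, 269 and 283 in ERF114OX, a steadier fall than that of the anthocyanin genes, whose WT values differed by several times. Without ERF114OX 1, 3 genes of the list fell, and the call of UGT79B1 was lost when any library other than WT 1 was left out (-2.49 to -1.79). In the root triterpene clusters, many of whose genes sit side by side in the genome, genes moved apart. MRN1, the marneral synthase, was at 708, 855 and 868 normalized counts in WT and 3432, 3568 and 3529 in ERF114OX (2.119 ± 0.11, adjusted p = 2.6e-07), and the arabidiol synthase gene PEN1 (1.01 ± 0.07) and CYP71A16 (0.65 ± 0.10), which oxidizes marneral products, rose. THAS1, the thalianol synthase, was at 17380.4, 18944 and 19846 normalized counts in WT and 13468, 13091 and 12481 in ERF114OX (-0.52 ± 0.07, adjusted p = 0.00019), THAH fell (-0.23 ± 0.08), and THAD (0.08 ± 0.09) and PEN3 (-0.02 ± 0.27) were not called. THAH lost its call without ERF114OX 2, ERF114OX 3, WT 2 or WT 3 (-0.22 to -0.19).

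Iron genes moved in both directions, and IRT1 and FRO2 rose. Arabidopsis roots reduce ferric iron with FRO2 and import it with IRT1, under bHLH factors of the Ib group that are induced by iron deficiency. Of 19 measured genes 5 rose and 7 fell. IRT1 was at 2684, 2382 and 2992 normalized counts in WT and 8324, 6389.5 and 6236 in ERF114OX (1.37 ± 0.16, adjusted p = 9.9e-05) and FRO2 at 1176, 1146 and 1214 normalized counts in WT and 3256, 2757 and 2956 in ERF114OX (1.34 ± 0.11, adjusted p = 7.7e-06). FER1, the iron store protein ferritin, was at 3562, 3201 and 3591 normalized counts in WT and 7504, 6679.7 and 6522 in ERF114OX (1.00 ± 0.07, adjusted p = 4.4e-06). These 3 genes were higher in every ERF114OX library than in any of WT. BHLH101 was at 114.7, 119 and 128 normalized counts in WT and 46.5, 40.2 and 58.1 in ERF114OX (-1.32 ± 0.21, adjusted p = 0.00054), and BHLH38 (-0.94 ± 0.19), the nicotianamine synthase gene NAS4 (-0.54 ± 0.08) and the regulator gene BTS (-0.30 ± 0.04) fell.

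Genes of the main nutrients were mixed. Of 15 nitrate and ammonium genes 6 rose and 3 fell, with the nitrate transceptor gene NRT1.1 at 20511, 21470.1 and 20326 normalized counts in WT and 31259, 31164 and 30123 in ERF114OX (0.57 ± 0.10), GLN1;1 at 0.47 ± 0.05 and AMT1;2 at 0.50 ± 0.08. The nitrate reductase gene NIA1 was at 13179, 4657 and 9179.8 normalized counts in WT and 2133, 2805 and 2872 in ERF114OX (-1.68 ± 0.28, adjusted p = 0.00081), with WT libraries that differed by more than 2-fold. Of 15 phosphate genes 6 rose and 3 fell, with the ubiquitin-conjugating enzyme gene PHO2 at 0.51 ± 0.06, the phosphatase gene PAP17 at 0.70 ± 0.12 and SPX1 at -0.79 ± 0.16. Of 14 sulfate genes 5 rose and 4 fell, 5 in all when only the 2 groups were fitted. The uptake carrier gene SULTR1;2 was at 13770.1, 15743 and 15463 normalized counts in WT and 20608, 19759 and 20461 in ERF114OX (0.44 ± 0.08), and SULTR2;1, which moves sulfate within the vasculature, at 2290.2, 2146 and 1861 normalized counts in WT and 846, 1166 and 1293 in ERF114OX (-0.95 ± 0.13, adjusted p = 0.00019).

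Few cell division genes were called, while most kinesins fell. Of 25 genes of G2 and M phase 1 rose and 3 fell, and of 16 replication genes 2 rose and 2 fell, shares at or below the background. CYCB1;1, a mitotic cyclin, was at 483, 533 and 473 normalized counts in WT and 364, 387 and 387 in ERF114OX (-0.39 ± 0.08, adjusted p = 0.0037), and TSO2, a ribonucleotide reductase subunit, changed by 0.28 ± 0.06. Without ERF114OX 2 or without ERF114OX 3, 2 genes of each list were called. Of 23 G1 cyclins and inhibitors 4 rose and 3 fell (3 in all without ERF114OX 3 and 4 without WT 3). CYCD1;1 was at 1043, 905 and 963 normalized counts in WT and 1732, 1507 and 1658 in ERF114OX (0.75 ± 0.08, adjusted p = 3.6e-05), CYCD2;1 changed by 0.31 ± 0.05, and the inhibitor gene KRP2 by -0.46 ± 0.10. Of 27 kinesins, motor proteins of microtubules that were taken by name whatever their function, 21 fell and 1 rose (median -0.35). POK2, which guides the division plane, was at 1221, 1158 and 1074 normalized counts in WT and 777, 554 and 599 in ERF114OX (-0.85 ± 0.11, adjusted p = 0.00014), and AT2G22610 at 697, 633 and 684 normalized counts in WT and 394, 358 and 308 in ERF114OX (-0.93 ± 0.10, adjusted p = 5.3e-05). The kinesin falls were small and without an overlap of the groups in 19 genes, as were 4415 of the 4581 genes called lower.

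Ribosomal protein genes mostly rose, by a small amount. Of 321 genes, those of organelles included, 189 rose and 37 fell (median 0.27). AT4G27090, a protein of the large subunit, was at 18809, 19648 and 17589 normalized counts in WT and 24869.8, 25697 and 24952 in ERF114OX (0.43 ± 0.06, adjusted p = 0.00036), and the groups did not overlap. Genes that fell included RPS1 (-1.10 ± 0.18), RPL9 (-1.56 ± 0.24) and EMB3126 (-1.47 ± 0.23), which encode plastid proteins. EMB3126 was at 8766, 4193 and 7158 normalized counts in WT and 1704, 2701 and 2690.0 in ERF114OX, and ERF114OX 1 was its lowest library, as for the photosynthesis share.

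Stem cell factors of the root meristem had 4 rises and 2 falls of 19, and 13 were not called. Among all genes 17.5% were higher and 19.6% lower, so this list does not stand out. SHR, a GRAS factor that moves from the stele to the endodermis, was at 1508, 1529.6 and 1387 normalized counts in WT and 1954, 2271 and 1987 in ERF114OX (0.49 ± 0.08, adjusted p = 0.00050), and BRAVO, a repressor of quiescent centre division, at 151, 129 and 125 normalized counts in WT and 265, 206 and 198 in ERF114OX (0.71 ± 0.16, adjusted p = 0.0048). MGP was at 1075, 1144 and 996 normalized counts in WT and 699, 687 and 616 in ERF114OX (-0.68 ± 0.07, adjusted p = 3.4e-05) and JKD changed by -0.45 ± 0.06, both zinc finger partners of SHR in the ground tissue. So SHR rose while MGP and JKD fell, in a list of which most members were not called.

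**Figure D5:**
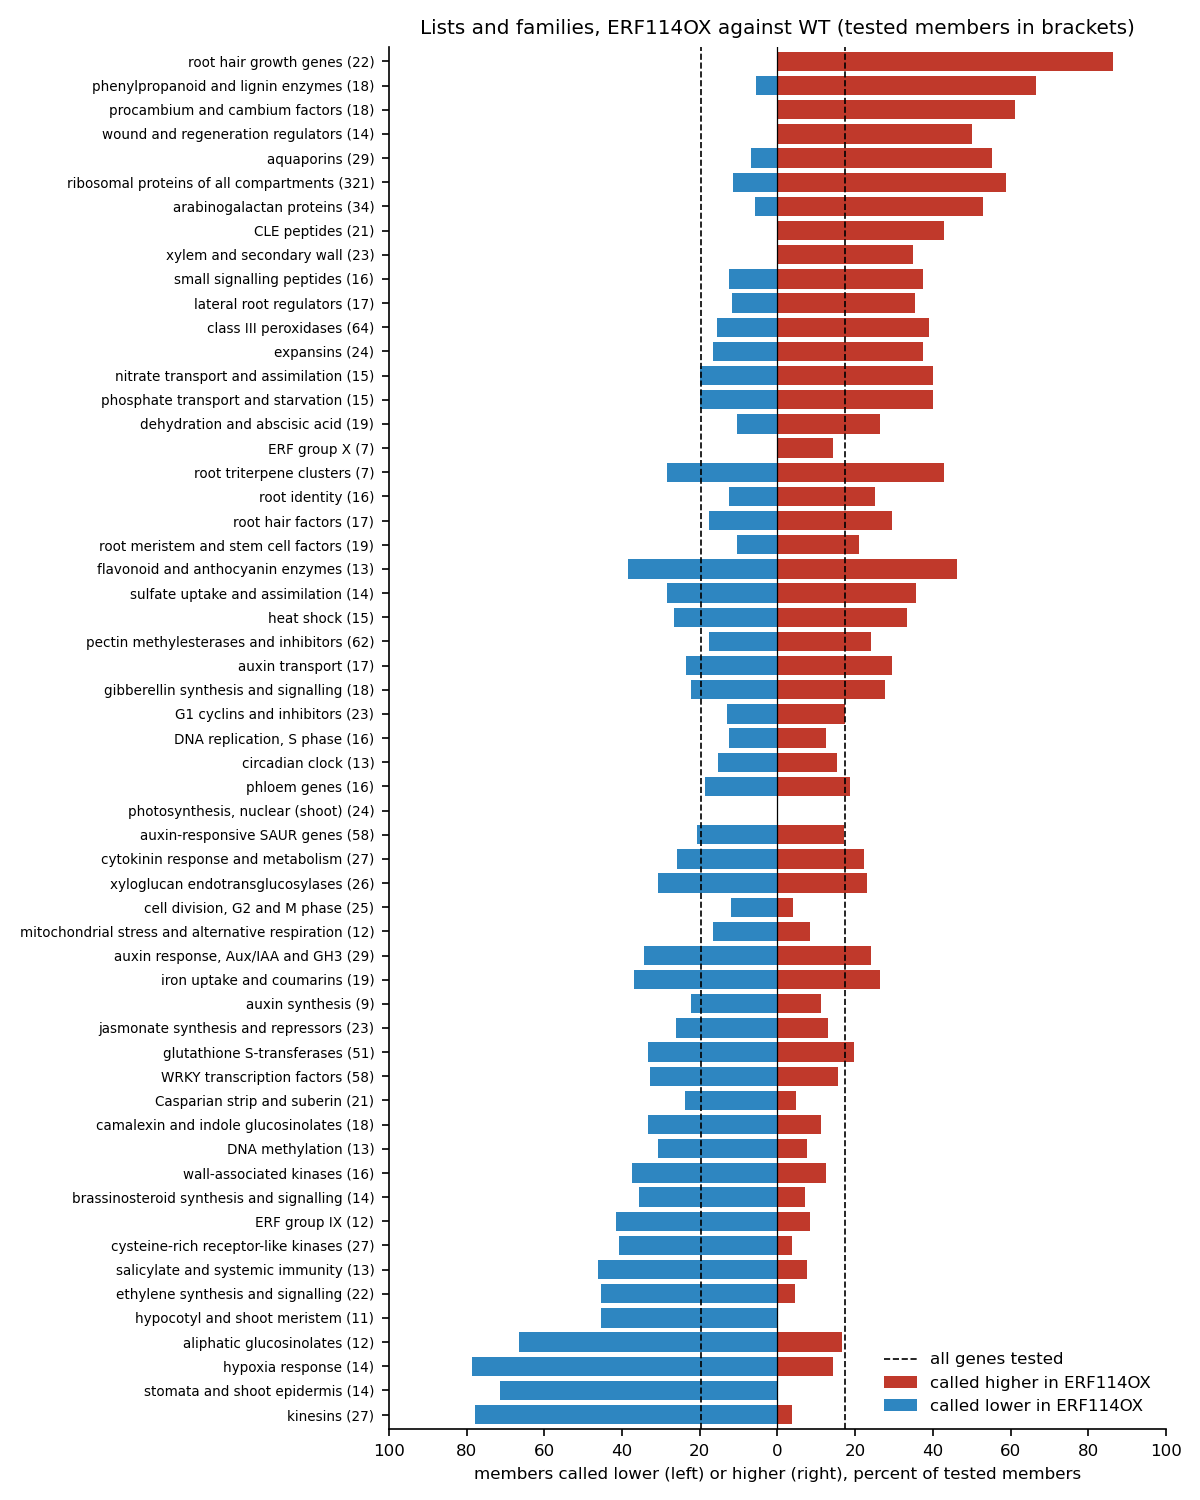
Percent of the tested members of each list and family called higher (right, red) or lower (left, blue) in ERF114OX against WT, ordered by the difference, with the number of tested members in brackets. Dashed lines mark all genes tested (17.5% higher, 19.6% lower). Root hair growth genes stand at the top and kinesins at the bottom.

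Other lists were mixed. DNA methylation genes had 1 rise and 4 falls of 13, and the falls were of the 4 demethylase genes of the list, DML2 (-1.26 ± 0.12), DML3 (-1.20 ± 0.20), DME (-0.58 ± 0.09) and ROS1 (-0.46 ± 0.10). DML2 was at 399.5, 349 and 407 normalized counts in WT and 180.1, 161 and 140.0 in ERF114OX, with the groups well apart. Clock genes had 2 rises and 2 falls of 13 (2 calls without ERF114OX 3), with PRR7 at -0.64 ± 0.08. Heat shock genes had 5 rises and 4 falls of 15 (5 calls without WT 3). Mitochondrial stress genes had 1 rise and 2 falls of 12, 6 calls in all without ERF114OX 1 or in edgeR and 5 with TMM scaling.

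Set directly against ERF115OX, which was built with the related factor, ERF114OX differed in 1613 genes (6.9% of those tested), of which 497 were higher and 1116 lower in ERF114OX. This comparison shares the ERF114OX libraries with the one above, so overlaps between them are not given. The count rested on single libraries, with 600 calls without ERF115OX 2, 841 without ERF114OX 2, 887 without ERF115OX 3 and 922 without ERF114OX 3. Apart from the transgenes, and among genes with no overlap and a mean of at least 100 normalized counts in the higher group, the largest differences above ERF115OX were at AT1G07887, MRD1, AT3G16670 and HEI10. At AT1G07887, MRD1 and HEI10 it was ERF115OX that stood far below WT, and ERF115-SRDX was low as well, with means of 8.82 ± 7.08, 34.4 ± 6.02 and 208 ± 30.3 normalized counts. MRD1 was at 2009, 2075 and 1987 normalized counts in WT and 2479, 2815 and 2825 in ERF114OX and at 14.1, 26.4 and 17.56 in ERF115OX, and HEI10, a gene of meiotic crossing over, was at 2214, 2306 and 2126 normalized counts in WT and 2633, 2931 and 2927 in ERF114OX and at 143, 140.3 and 151 in ERF115OX. The differences from ERF115OX were 7.10 ± 0.19 for MRD1 and 4.28 ± 0.09 for HEI10 (adjusted p = 5.0e-10 and 1.3e-10). ERF114OX was above WT by 0.35 ± 0.09 at HEI10 (adjusted p = 0.012), and by 0.42 ± 0.19 at MRD1, which was not called by limma but was by DESeq2, by edgeR and when WT and ERF114OX were fitted alone. AT1G07887 was at 1965, 2021 and 1965 normalized counts in WT and 2443, 2796 and 2796 in ERF114OX, close to MRD1 in these 6 libraries, and at 4.03, 10.2 and 6.20 in ERF115OX (8.498 ± 0.48). The differences were 5.91 ± 1.59 for AT3G16670, whose call was lost in 5 of 6 leave-outs (adjusted p up to 0.19), and 3.35 ± 0.24 for AT5G44925. AT5G44925 was at 138, 190 and 136 normalized counts in WT, 102, 113 and 102 in ERF114OX and 8.06, 10.2 and 10.3 in ERF115OX. So ERF115OX was far below WT at AT5G44925 too, and ERF114OX changed by -0.53 ± 0.24 against WT, which was not called by the main limma fit (adjusted p = 0.11).

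Below ERF115OX by the most under the same limits, apart from ERF115, were AT2G17490, PDF1.4, AT3G05770 and EARLI1. AT2G17490 was at 40.8, 24.4 and 39.8 normalized counts in WT and 3.87, 8.47 and 9.34 in ERF114OX, and at 980.1, 806 and 874 in ERF115OX (-6.82 ± 0.35, adjusted p = 1.0e-06). EARLI1, a protein of the lipid transfer class, was at 2320.3, 1945 and 2098 normalized counts in WT and 396, 251 and 250.0 in ERF114OX, and at 2669, 2762 and 3016 in ERF115OX (-3.26 ± 0.56, adjusted p = 0.0050). EARLI1 was above all WT libraries in ERF115OX and far below them in ERF114OX. The differences were -4.49 ± 0.52 for the defensin-like gene PDF1.4 and -3.61 ± 0.30 for AT3G05770.

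Lists differed between the overexpressors in several places, and only some are given here, beside 6.9% of all genes called in either direction. Of 18 camalexin and indole glucosinolate genes 6 were lower and 0 higher than in ERF115OX, and of 27 cysteine-rich receptor-like kinases 6 and 0. Of 51 glutathione S-transferases 11 were lower and 3 higher, and of 29 Aux/IAA and GH3 genes 8 and 1. Without ERF115OX 2 the lower genes of these 4 came to 4, 6, 5 and 4. Of the root hair growth genes 1 was higher and 5 were lower than in ERF115OX, although 19 were above WT. RHS13 was at 3347, 3495 and 3710.0 in ERF115OX against 2409, 2752 and 2701 in ERF114OX (-0.43 ± 0.08, adjusted p = 0.0090). Of the arabinogalactan proteins 7 were higher than in ERF115OX. Those 7 became 1 without ERF114OX 2, ERF114OX 3 or ERF115OX 2, 3 without ERF115OX 1 and 11 without ERF114OX 1. Among cytokinin genes 7 were lower, which became 3 without ERF114OX 1, ERF114OX 2, ERF114OX 3 or ERF115OX 2 and 2 without ERF115OX 3. Of these, CKX2 was at 30.2, 58.0 and 64.1 in ERF115OX (-2.75 ± 0.46, adjusted p = 0.0045). AAP3, SBT3.3 and AT1G30760 stood above ERF115OX by 0.52 ± 0.08, 1.28 ± 0.18 and 0.70 ± 0.09 (adjusted p = 0.0029, 0.0017 and 0.00074), and XTH20 below it (-0.59 ± 0.13, adjusted p = 0.018). PSK5 was also lower than in ERF115OX (-0.28 ± 0.08, adjusted p = 0.045). The call of XTH20 against ERF115OX was lost in 4 of 6 leave-outs (adjusted p up to 0.068) and that of PSK5 in 5 (up to 0.19). MRN1 was higher (1.15 ± 0.11, adjusted p = 8.9e-05).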

How the data were processed

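Root messenger RNA of 4 groups of 3 libraries was sequenced. Per the submitters' processing notes, reads were trimmed with Trimmomatic 0.39, aligned with HISAT2 2.2.1, handled with SAMtools 1.11 and counted with featureCounts of Subread 2.0.1. The deposited signal values are DESeq2 normalized counts, made by the authors by dividing reads by 1 size factor per library. Neither genome build nor strand setting is given in these sources. Whole reads were recovered from the deposited values, of which 1 of 316348 above 0 was not whole within 0.001 reads.

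Only genes averaging at least 10 normalized counts across all 12 libraries entered limma 3.58.1 (R 4.3.3) on log2(normalized count + 1), with a variance trend and all 4 groups in 1 fit. The scale understates changes of genes with few reads. Alternatives on the recovered reads were edgeR 4.0.16 and DESeq2 1.42.0, and others were other pseudocounts, filters and scalings, a replicate block and leaving out each library. Of these fits, only limma for ERF114OX against WT was tested on simulated counts, in which far fewer genes changed than were called here. Gene names and products came from a RefSeq gene table, which held all 37884 genes. The groups, the 43 lists and the 14 families were chosen with earlier results of these data known. Of the 751 genes of the lists, 699 were tested.

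Genes were named by rule. The rule took ERF114 and ERF115, the 12 largest changes in each direction among called genes with no overlap of the groups, a mean of at least 100 normalized counts in the higher group and a gene record, the 6 smallest p-values in each direction, up to 4 called members of each list or family in each direction by p-value, every member of a list of up to 8, and the 5 largest differences in each direction from ERF115OX, under the same limits on overlap and level. UGT79B1 and ORA59 were named outside it, after their values were seen. With 47242114 to 48343410 reads per library, precision is limited by the 3 libraries of a group for all but genes with few reads. The values of 1 gene that the rule names are not reported here.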

Additional observations from a re-analysis of the deposited data

How the results depend on the processing

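The total of 8674 calls against WT ranged from 6485 to 8115 when 1 library was left out. It was 8601 and 8805 with pseudocounts of 0.5 and 4, 8385 with no filter and 8358 with a mean of at least 50, 8612 with TMM scaling and 8860 with quantile normalization. It fell to 1411 when an absolute log2 change of at least 1 was asked for as well. edgeR shared 91.0% of the calls in the same direction, DESeq2 97.2%, and a fit of only the 2 groups 85.3%. Labels give the groups the same replicate numbers. Deviations of same-numbered libraries from their group means had correlations of -0.083, -0.193 and 0.116. Deviations of 3 libraries from their own mean sum to 0, so these values cannot decide whether the numbers pair the libraries. With the replicate block 8400 genes were called, and 93.9% of the calls were shared. Calls against ERF115OX ranged from 600 to 2204 when 1 library was left out, and were 1608 in edgeR and 2380 in DESeq2. The cause was not tested. The photosynthesis share differed by -1.18 percentage points, and by -1.51 to -0.813 with 1 library left out.

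Of 459 genes followed, 354 kept their direction and side of the threshold under every alternative run, 100 lost their call under at least 1, and 0 changed direction. Losses were most frequent without ERF114OX 3 (65 genes) and without WT 3 (62 genes), and 49 genes lost their call without ERF114OX 1. Of 57 lists and families, 38 kept their count of calls within 1.5 times under every alternative. The medians of SAUR genes (-0.14) and other lists near 0 changed sign with the scaling. Leave-outs of single genes and lists against ERF115OX were chosen after seeing the data.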

Other observations

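Some genes that changed by at least 2-fold stood beside each other, and no share for genes in general was computed. Of the 281 such genes that rose, 50 (17.8%) stood beside another in 24 runs of up to 3 genes. Of the 1130 that fell, 294 (26.0%) stood in 137 runs of up to 5 genes. The order was that of the tested genes in the RefSeq table, so untested genes between them were skipped. Some runs hold overlapping genes with the same reads, such as FLC and AT5G01675, which raises these numbers.

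By level of a gene, calls fell as follows. Between 10 and 100 mean normalized counts, 214 of 4071 genes rose and 578 fell. Between 100 and 1000, 1322 of 9862 rose and 2205 fell, and from 1000 up, 2557 of 9442 rose and 1798 fell. Of 1179 long non-coding RNA genes 139 rose (11.8%) and 179 fell (15.2%). Of 131 small nucleolar RNA genes 7 rose (5.34%) and 0 fell. These shares were below those of all genes tested, 17.5% higher and 19.6% lower.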
